A study of Drosophila melanogaster with 3 samples.

Results

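Nuclear transfer RNA genes were taken as the genes of biotype tRNA on the nuclear chromosomes of the Release 6 annotation of Drosophila melanogaster, and 290 of 18320 annotated nuclear genes qualified. The 22 mitochondrial tRNA genes were left out. For each gene, peak summits within 500 bp of the gene start were collected from ChIP-seq peak lists. The genes were then split by amino acid, by genomic cluster (runs of tRNA genes at most 5 kb apart) and by whether a protein-coding transcription start site (TSS) lay within 500 bp. The 290 genes formed 144 loci, of which 68 were clusters holding 214 genes and 76 were lone genes. They covered 22 classes by amino acid, counting the initiator methionine and selenocysteine tRNAs separately, and 45 anticodons.

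All samples belonged to 1 group of 3 biological replicates of whole embryos, mixed sex, aged 0 to 24 h, from a transgenic line that carries a protein fused at its C-terminus to GFP. The fused protein is named CG45071 in the description, the strain and antibody fields name CG6854, and the insertion target is given as CTPsyn, which by its name is the CTP synthase. The precipitation used an antibody to GFP according to the description. There was no untagged or untreated group in the files used here, the embryos were pooled over that age range and all tissues, and peak lists hold no expression values, so the embryo label could not be checked against markers. The relaxed lists of the replicates and a list called on the pooled replicates held 30000 peaks each, and the optimal list, made from the replicate and pooled lists by a test of irreproducible discovery rate, held 3545. The 3545 strongest peaks of each replicate are called its top list here. Depth is unknown, because peak lists carry no read totals.

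Transfer RNA genes are short genes read by RNA polymerase III. Their promoter lies inside the gene, as an A box and a B box that the factor TFIIIC binds, and TFIIIB is then placed just upstream of the start and recruits the polymerase. The genes are present in many identical copies and often lie next to each other, and their transcripts are among the most abundant RNAs of growing embryos.

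The internal promoter is shown here in 5 genes that the results turn on, with the A box (TNGNNNA) and the B box (GTTCNANNC) in capitals, read 5′ to 3′ on the gene's own strand from the RefSeq assembly of Release 6. The first is the gene with the strongest peak (3R:8669081-8669174, minus strand, with an intron), the next a lone gene beside a coding promoter (3R:24112964-24113047, plus strand), the third a sequence carried by 12 identical genes (here 2L:8541552-8541623, minus strand), the fourth a gene of a 6-gene cluster (3L:3095737-3095808, plus strand) and the last a gene of the X-linked cluster with no pooled summit (X:14016203-14016275, plus strand).
tRNA:Tyr-GTA-1-8: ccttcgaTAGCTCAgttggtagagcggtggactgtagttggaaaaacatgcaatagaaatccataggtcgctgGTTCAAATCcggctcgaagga
tRNA:Leu-TAA-2-1: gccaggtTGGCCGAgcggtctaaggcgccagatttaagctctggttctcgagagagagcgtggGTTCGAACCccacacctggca
tRNA:Asp-GTC-1-4: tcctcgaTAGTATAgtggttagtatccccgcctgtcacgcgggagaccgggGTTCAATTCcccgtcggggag
tRNA:Cys-GCA-1-1: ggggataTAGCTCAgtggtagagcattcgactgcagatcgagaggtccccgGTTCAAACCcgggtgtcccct
tRNA:Arg-TCG-3-1: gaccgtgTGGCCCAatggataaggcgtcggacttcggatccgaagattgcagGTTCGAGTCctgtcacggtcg
In all 5 the A box began at base 8 of the gene, and the B box began at base 52 or 53 in the genes of 72 and 73 bases, at base 64 in tRNA:Leu-TAA-2-1 and at base 74 in tRNA:Tyr-GTA-1-8.

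An optimal summit lay within 500 bp of 43 of the 290 tRNA genes, or 14.8% (Wilson 95% interval 11.2 to 19.4), and a pooled summit within 500 bp of 176 genes, or 60.7% (55.0 to 66.1). The same distance held an optimal summit at 11.6% and a pooled summit at 48.5% of 13973 protein-coding gene starts. Of genome positions taken over all bases, 2.50% had an optimal and 18.7% a pooled summit that near. The intervals cover counting error only, and neighbouring tRNA genes share peaks: the 43 genes were reached by 28 distinct optimal summits, 18 of which lay within 500 bp of 2 or 3 tRNA genes.

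The 3 replicates gave 10.3%, 16.9% and 12.8% of tRNA genes with a top-list summit (13.3 ± 3.31%, mean ± SD, n = 3), beside 12.1%, 11.9% and 11.9% of protein-coding gene starts (11.9 ± 0.114%). Replicate 1 was below the coding share and replicates 2 and 3 above it. The difference of 1.41 ± 3.40 percentage points was smaller than its spread (exact two-sided sign-flip permutation test over the 3 replicates, p = 0.75; the smallest p this design allows is 0.25). In the relaxed lists, 59.3%, 60.3% and 60.0% of tRNA genes had a summit, beside 44.6%, 49.3% and 45.8% of protein-coding gene starts. Here the tRNA share was higher in each of the 3 replicates, by 13.3 ± 2.01 points (exact p = 0.25). The labels call the replicates biological without describing separate collections, so these SDs measure the spread between 3 deposited libraries.

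The replicates shared a small set of genes. A top-list summit was found in all 3 replicates at 16 tRNA genes, every one of which also had an optimal summit. Of the other optimal genes, 18 were in 2 top lists and 9 in 1. No optimal gene was in none, as the optimal list was made from the replicates, and 224 of the 290 genes were in no top list. An optimal summit whose peak was also in both other top lists was found at 9.31% of tRNA genes without replicate 1, 6.55% without replicate 2 and 7.24% without replicate 3, against 14.8% for the list as deposited. In the relaxed lists, 125 genes had a summit in all 3 replicates and 70 in none. The same counts for protein-coding gene starts are not given here, so these describe tRNA genes alone.

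Where a coding promoter was near, tRNA genes had more summits. Of the 32 tRNA genes with a protein-coding TSS within 500 bp of their start, 10 had an optimal summit (31.2%), against 33 of the 258 without one (12.8%). In the top lists the shares were 25%, 25% and 21.9% of genes with a coding TSS and 8.53%, 15.9% and 11.6% of genes without. The groups did not overlap, and the difference was 11.9 ± 3.96 points (n = 3, exact p = 0.25). This agreement depended on the TSS distance. With a coding TSS within 250 bp the exact sign-flip p over the top lists was 0.5, so the replicates did not all share the direction. Of genome positions within 500 bp of a coding TSS, 10.2% had an optimal summit within 500 bp. When an optimal peak had also to be in the top lists of both other replicates, the optimal difference of 18.5 points became 7.10 without replicate 1, 13.7 without replicate 2 and 12.9 without replicate 3. Judged from the summit instead of the gene start, 12 of the 43 genes had a coding TSS within 500 bp of their optimal summit and 31 did not.

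Counted by summit, 42.9% of the 28 distinct optimal summits had a coding TSS within 500 bp, beside 49.6% of all 3545 optimal peaks. Away from coding promoters, tRNA genes could be set against the rest of the genome. For tRNA genes without a coding TSS, the top-list share of 12.0 ± 3.70% compared with 1.48 ± 0.0101% of genome positions over 500 bp from a coding TSS (n = 3). The excess was 7.04, 14.4 and 10.2 points in the 3 replicates (exact p = 0.25). In the relaxed lists the shares were 58.4 ± 0.895% and 15.8 ± 0.339%.

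A larger share of clustered than of lone tRNA genes had a summit within 500 bp. An optimal summit was within 500 bp of 40 of 214 clustered genes (18.7%) and of 3 of 76 lone genes (3.95%). Top-list shares were 12.1%, 21.0% and 15.9% of clustered genes and 5.26%, 5.26% and 3.95% of lone genes, a difference of 11.5 ± 4.45 points (n = 3, exact p = 0.25). In the relaxed lists the difference was 27.7 ± 7.19 points. Clustered and lone shares were separate in every replicate of both kinds of list. A summit within reach of several neighbours is counted at each of them. Counted once, the top lists held 17, 24 and 21 summits at 214 clustered genes and 4, 4 and 3 at 76 lone genes. The relaxed lists held 120, 110 and 116 at clustered genes and 35, 44 and 37 at lone genes. Per gene, replicate 2 of the relaxed lists thus had fewer summits at clustered than at lone genes. Counted by locus, 20 of 68 clusters (29.4%) and 3 of 76 lone genes had an optimal summit, and 52 clusters (76.5%) and 30 lone genes (39.5%) had a pooled one. The direction turned in the 1000 strongest optimal peaks, where clustered minus lone genes gave −3.48 points on 4 genes in all. When an optimal peak had also to be in the top lists of both other replicates, the optimal difference of 14.7 points became 7.27 without replicate 1, 3.53 without replicate 2 and 4.46 without replicate 3.

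The 3 lone genes were tRNA:Leu-TAA-2-1, tRNA:Val-CAC-2-5 and tRNA:Phe-GAA-1-2, and all 3 summits lay within 500 bp of a coding TSS. None of the 76 lone tRNA genes had an optimal summit away from a coding promoter, whereas 31 of the 214 clustered genes (14.5%) did. In the pooled list the counts were 131 clustered genes (61.2%) and 24 lone genes (31.6%).

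A cluster covers more bases than a lone gene, so summits were also counted per 100 kb of the merged 500 bp windows, using genes without a coding TSS. The top lists held 9.25, 14.7 and 13.1 summits per 100 kb at clustered genes and 2.85, 2.85 and 1.43 at lone genes, and the genome over 500 bp from a coding TSS held 1.48 ± 0.0123. Clustered genes exceeded lone genes by 9.96 ± 3.08 (n = 3, exact p = 0.25), and lone genes exceeded the genome by 0.903 ± 0.812, with 1 replicate below it (exact p = 0.5). In the relaxed lists the densities were 81.5 ± 3.21 at clustered genes, 45.7 ± 5.15 at lone genes and 18.0 ± 0.332 in that genome. All 3 replicates then kept the order clustered, lone, genome, as the plot of summit density shows. Merged windows still held more tRNA genes per base in clusters, with 188 genes in 129693 bp, against 70 in 70070 bp at lone genes. The relaxed lists held 107, 101 and 109 summits at these 188 genes and 29, 36 and 31 at the 70 lone genes. The part of gene density in the differences per 100 kb was not tested.

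**Figure D1:**
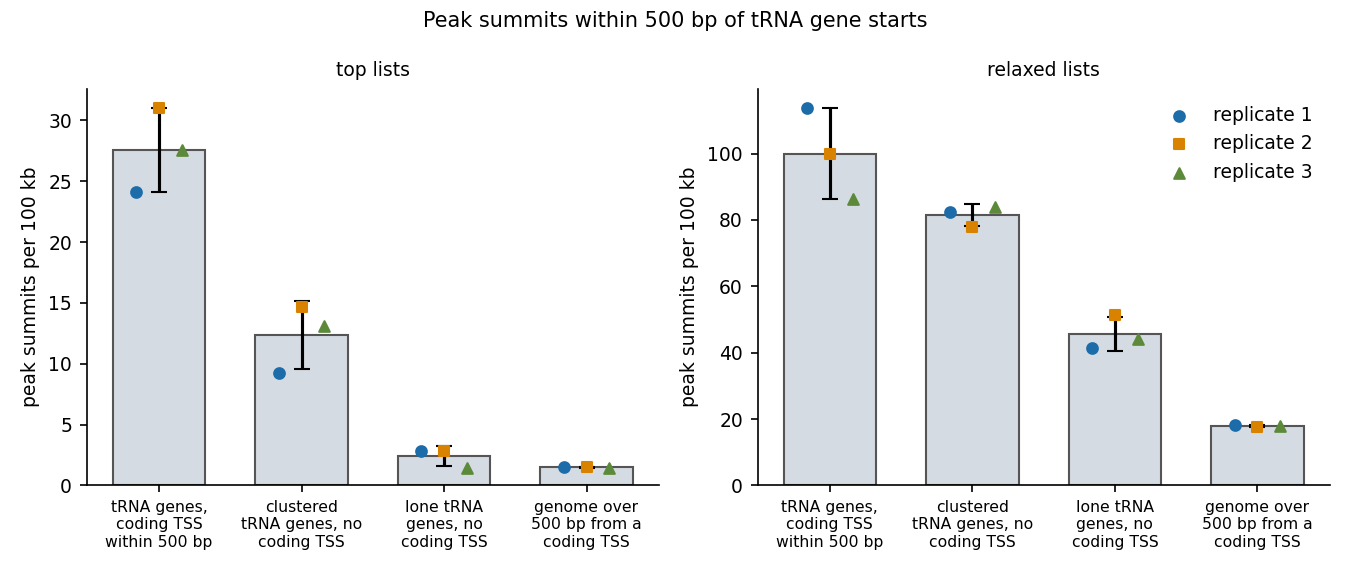
Peak summits per 100 kb (y axis, from 0) in merged windows of 500 bp around tRNA gene starts and in the genome over 500 bp from a coding TSS, in the top lists (left) and the relaxed lists (right). Points are the 3 replicates, bars their mean and error bars the SD. In the top lists clustered genes sat between 9.25 and 14.7, while lone genes sat between 1.43 and 2.85, near the genome at 1.48.

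More close neighbours did not mean more summits in every replicate. An optimal summit was found at 4 of 107 tRNA genes with no other tRNA start within 1 kb, at 21 of 95 with 1, at 12 of 53 with 2 and at 6 of 35 with 3 or more. Top-list shares of genes with 1 such neighbour were 16.8%, 16.8% and 21.1%, and all exceeded the 4.67%, 4.67% and 2.80% of genes with none. Genes with 3 or more neighbours spread from 0% in replicate 1 to 25.7% in replicate 2, with 20% in replicate 3.

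Counted by gene, optimal summits lay more often upstream of the tRNA start, and pooled summits on either side of it. The nearest optimal summit lay at a median of 54 bp upstream of the tRNA start (median signed distance −54 bp, n = 43 genes). It was upstream at 26 genes, inside the gene at 6 and downstream at 11. A summit shared by neighbouring genes is counted at each of them, and the 43 genes were reached by 28 distinct optimal summits. The top lists of the 3 replicates gave medians of −68, −63 and −46 bp. The optimal median was 81 bp, downstream of the start, in the 1000 strongest optimal peaks, which reached only 4 genes. It was −15.5 bp with a window of 100 bp, on 16 genes. Without replicate 1, for optimal peaks present in the top lists of replicates 2 and 3, it was −91 bp. The nearest pooled summit had a median of 3 bp, and was upstream at 86 of 176 genes, inside at 43 and downstream at 47. It lay within 100 bp of the start at 47.2% of these genes and within 250 bp at 83.0%. Protein-coding genes had medians of −103 bp (optimal) and −35 bp (pooled).

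The profile was drawn for the 167 tRNA genes over 2 kb from a coding TSS. A pooled summit fell in the 200 bp before the start of 21.0% of them and in the 200 bp after it in 26.9%. Bins between 1 and 2 kb away averaged 7.49%, and ranged from 4.79% to 11.4%. The relaxed lists of the 3 replicates gave 20.4%, 17.4% and 21.6% before the start and 18.6%, 22.2% and 23.4% after it. In the optimal list the bin before the start held 5.99% of genes and the bin after it 2.40%, beside a distant mean of 0.778%.

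**Figure D2:**
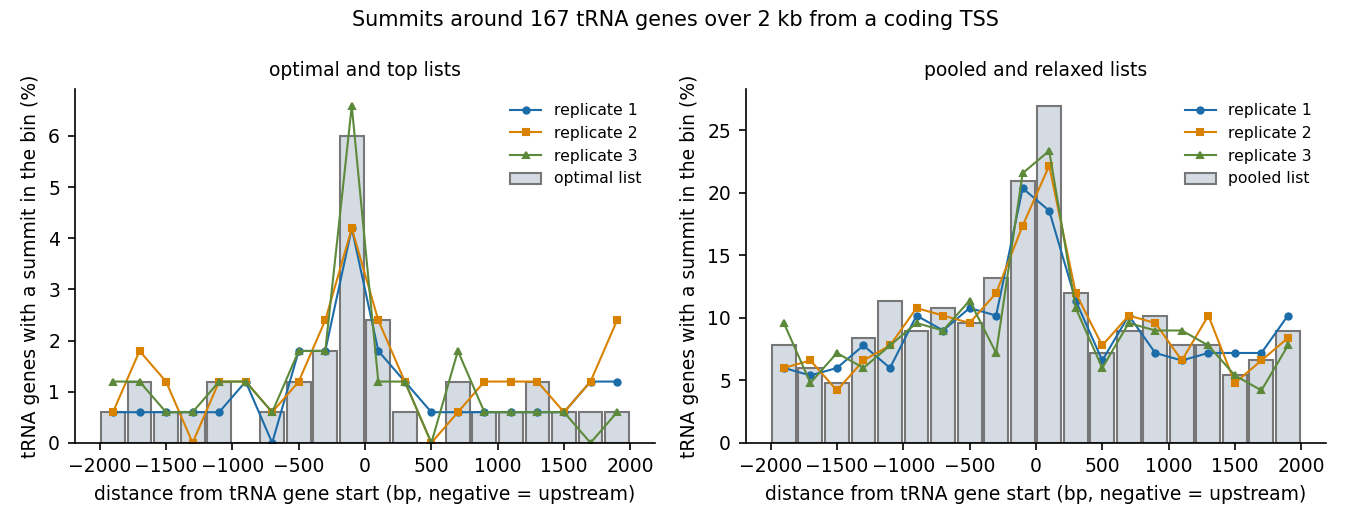
Share of tRNA genes (y axis, %) with a peak summit in each 200 bp bin of distance from the gene start (x axis, bp, negative is upstream), for 167 genes over 2 kb from a coding TSS. Bars are the optimal list (left) and the pooled list (right), lines the 3 replicates' top or relaxed lists. The 2 bins beside the start stand at 21.0% and 26.9% in the pooled list, above every bin between 1 and 2 kb.

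Peaks at tRNA genes were seldom among the strongest. The 28 optimal peaks had a median rank of 2408 and a median signal of 140, while all 3545 optimal peaks had a median rank of 1773 and a median signal of 167; signal is the value the authors' caller gave. Their ranks ran from 76 to 3533. The 12 with a coding TSS near the summit had a median rank of 1951 and the 16 without one a median of 2608. Read by gene, 1.38% of tRNA genes and 3.84% of protein-coding gene starts had their best pooled summit in ranks 1 to 1000. In ranks 1001 to 3545 the shares were 13.4% and 7.81%, in ranks 3546 to 10000 they were 23.1% and 16.2%, and in ranks 20001 to 30000 they were 4.83% and 7.21%.

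The 4 peaks in the first 1000 ranks all had a coding TSS near the summit. The strongest, at 3R:8669220-8669521 (rank 76, signal 725), was 183 bp upstream of tRNA:Tyr-GTA-1-8, which carries tyrosine, and 261 bp from the TSS of CG8036. It ranked 45, 91 and 103 in replicates 1, 2 and 3. The next, at X:6744163-6744299 (rank 464), was 345 bp downstream of the start of tRNA:Phe-GAA-1-2 but 27 bp from the TSS of RpL17, a gene for a protein of the large ribosomal subunit. It ranked 336, 544 and 539. The peak at 3R:19671632-19672067 (rank 624) lay 499 bp from tRNA:Val-CAC-2-5 and 400 bp from the TSS of Naam, a nicotinamide amidase, and ranked 859, 612 and 733. The peak at 3R:24112706-24112888 (rank 642) lay 185 bp upstream of tRNA:Leu-TAA-2-1 and 390 bp from the TSS of CG13605, and ranked 1078, 645 and 585. Every replicate placed these 4 peaks inside its top list. In a window holding both gene types, the tRNA gene and the coding promoter cannot be told apart as the source of the summit.

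The strongest peaks away from coding promoters began at rank 1129. That peak, at 2R:19727118-19727553, lay 195 bp downstream of the start of tRNA:Glu-TTC-1-5, in a cluster of glutamate and initiator methionine genes, and 13260 bp from the nearest coding TSS. It ranked 696, 1299 and 2060. A peak at 2R:19414567-19415002 (rank 1375) served tRNA:Ser-CGA-1-4, tRNA:Val-AAC-2-1 and tRNA:Val-AAC-2-2 and ranked 1426, 2294 and 1655. The peak at tRNA:Thr-AGT-1-2 (2R:7070669-7071104, rank 1583) ranked 1498, 2199 and 1864, and that between tRNA:Arg-CCT-1-2 and tRNA:Arg-CCT-1-3 (2R:20000348-20000783, rank 1672) ranked 1247, 2507 and 1452. The tenth, between tRNA:Phe-GAA-1-4 and tRNA:Phe-GAA-1-5 (2R:17604462-17604897, rank 1703), ranked 1613, 1528 and 2792. These 5 were in the top list of every replicate. The remaining peak of the first 10, at tRNA:Asp-GTC-1-4 and tRNA:Asp-GTC-1-5, lay 331 bp from the TSS of Sema1a. It ranked 3764, 2581 and 1097 and was outside the top list of replicate 1.

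**Figure D3:**
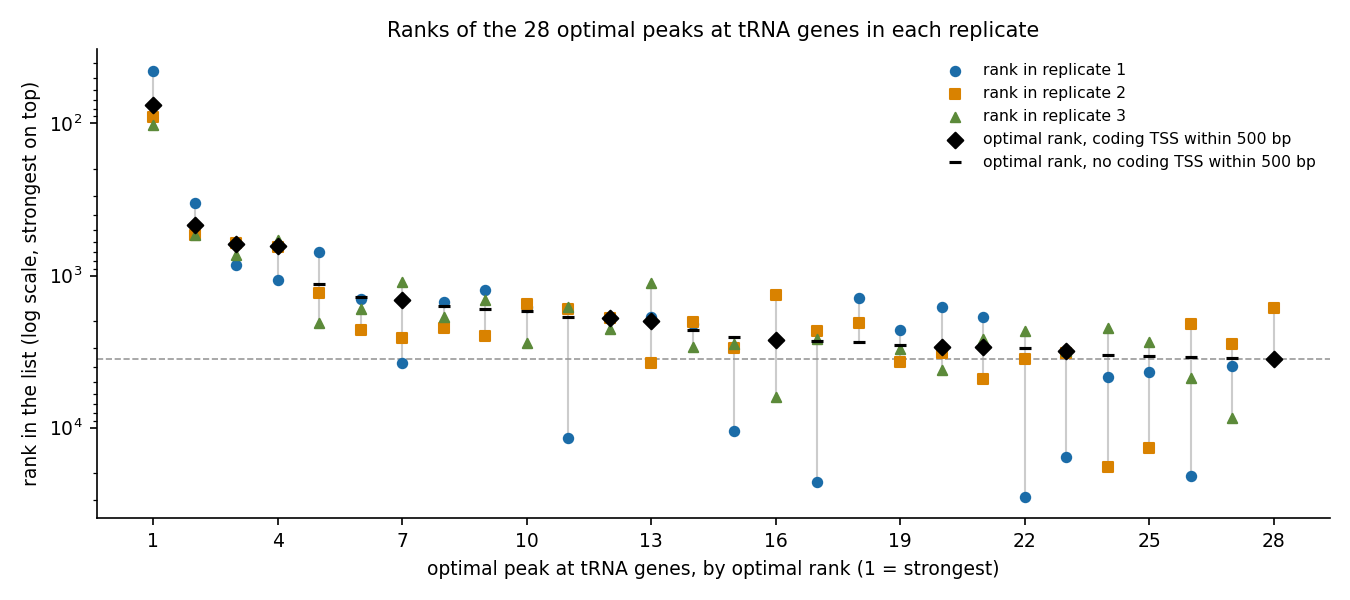
Rank (y axis, log scale, strongest on top) of the 28 optimal peaks at tRNA genes, ordered by optimal rank (x axis), in the relaxed list of each replicate (coloured points, best summit within 200 bp). Black diamonds are optimal ranks of peaks with a coding TSS within 500 bp of the summit, black dashes those without one, and the dashed line marks rank 3545. The first 4 peaks are diamonds with ranks from 76 to 642, and replicate 1 ranks several later peaks beyond 10000.

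Replicate 1 held fewer of the optimal peaks at tRNA genes in its top list than replicates 2 and 3, as it did of all optimal peaks. Of the 28 optimal peaks at tRNA genes, 16, 23 and 22 were in the top lists of replicates 1, 2 and 3, and 11 were in all 3. Of all 3545 optimal peaks, 2612, 2910 and 2854 were in these top lists, and 1917 were in all 3. At the 16 without a coding TSS, the median rank was 3128 in replicate 1, 2299 in replicate 2 and 2597 in replicate 3. All optimal peaks without a coding TSS within 500 bp had medians of 1931, 1856 and 1882. The peak with its summit inside tRNA:Arg-TCT-1-1, 30 bp from the start and also within reach of tRNA:Met-CAT-1-1, ranked 1671 and 1610 in replicates 2 and 3 but 11703 in replicate 1.

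At the edges of the rules, the last genes with an optimal summit inside the 500 bp window were tRNA:Val-AAC-2-2 at 486 bp and tRNA:Val-CAC-2-5 at 499 bp. The first whose nearest optimal summit was outside were tRNA:Cys-GCA-1-3 at 506 bp and tRNA:Pro-TGG-1-1 at 574 bp, and both had a pooled summit inside the window. The last optimal peaks at tRNA genes had ranks 3480 (tRNA:Ala-AGC-2-6 and tRNA:Pro-TGG-1-4) and 3533 (tRNA:Trp-CCA-2-2 and tRNA:Gly-GCC-1-9). The first pooled peaks beyond the optimal length had ranks 3646 (tRNA:Val-CAC-2-5) and 3668 (tRNA:Trp-CCA-2-3, tRNA:Gly-GCC-1-12 and tRNA:Trp-CCA-2-4).

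Shares differed by the orientation of neighbouring genes, under a counting rule that itself depends on orientation. Adjacent tRNA genes at most 1 kb apart formed 115 pairs, and a summit counted only between the outer ends of a pair. That stretch takes in the upstream side of both starts in a divergent pair, of 1 start in a same-strand pair and of neither in a convergent pair. Counted by gene, optimal summits lay more often upstream, and the part of this rule in the differences was not tested. An optimal summit lay inside 9 of 25 divergent pairs (36.0%), whose starts face each other across the spacer, inside 3 of 22 convergent pairs (13.6%) and inside 4 of 68 same-strand pairs (5.88%). The pairs were of like extent, with median spans of 375, 369.5 and 420.5 bp. In the top lists the share was 20%, 36.0% and 28% for divergent pairs and 4.41%, 7.35% and 7.35% for same-strand pairs, and these did not overlap. The difference was 21.6 ± 6.58 points (n = 3, exact p = 0.25). Convergent pairs had 4.55%, 13.6% and 4.55%, also below divergent pairs in each replicate, and differed from same-strand pairs by 1.20 ± 4.64 points, within the spread. In the pooled list, summits lay inside 19 divergent, 16 convergent and 35 same-strand pairs (76.0%, 72.7% and 51.5%). Genes of 1 cluster enter more than 1 pair.

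**Figure D4:**
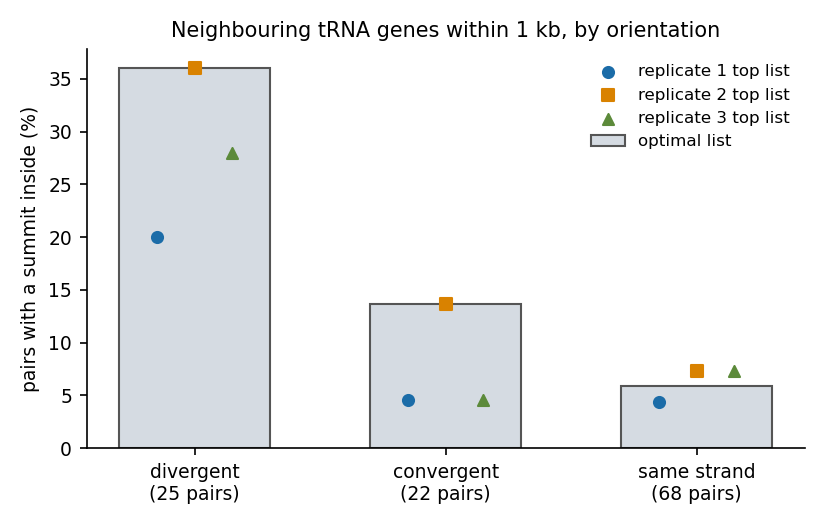
Share of adjacent tRNA gene pairs at most 1 kb apart with a summit inside the pair (y axis, %, from 0), by orientation. Bars are the optimal list and points the top lists of the 3 replicates. Divergent pairs sat between 20% and 36.0%, above all replicates of the convergent and same-strand pairs. A summit is inside when it lies between the outer ends of the pair, so only divergent pairs take in the upstream side of both starts.

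The divergent aspartate pair on 2L is shown whole (2L:8541552-8541832, plus strand, from the RefSeq assembly of Release 6), because its optimal summit is the strongest on that arm among tRNA genes. Capitals mark the genes tRNA:Asp-GTC-1-4, on the minus strand at the left, and tRNA:Asp-GTC-1-5, on the plus strand at the right, with a spacer of 137 bases between them.
Asp-GTC pair: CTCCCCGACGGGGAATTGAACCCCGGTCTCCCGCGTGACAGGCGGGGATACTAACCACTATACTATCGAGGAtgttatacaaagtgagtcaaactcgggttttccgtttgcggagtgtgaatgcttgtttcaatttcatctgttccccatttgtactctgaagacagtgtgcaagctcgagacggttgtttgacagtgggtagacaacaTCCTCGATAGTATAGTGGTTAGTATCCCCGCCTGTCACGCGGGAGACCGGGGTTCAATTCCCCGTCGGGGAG
The summit at rank 1446 fell on base 265 of this stretch, inside the right-hand gene and 55 bp after its start, where the B box begins at base 52 of the gene. A second optimal summit (rank 3123) lay 316 bp beyond that start, 70 bp from the TSS of Sema1a, a semaphorin gene.

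The 10 clusters of 5 or more genes differed widely. The isoleucine and leucine cluster at 2R:13430282-13432794 had 4 of 7 genes with an optimal summit and all 7 with a pooled one, and its genes in the top list numbered 0, 6 and 3 in the 3 replicates. The glutamate and initiator methionine cluster at 2R:19725620-19728958 also had 4 of 7 and 7 of 7, with 4, 4 and 3 in the top lists. The cysteine and lysine cluster at 3L:3095737-3097590 had 2 of 6 optimal and 6 of 6 pooled, with 0, 3 and 2. The 11-gene cluster of valine, proline, alanine and threonine genes at 3R:17617761-17631750 had 1 optimal and 7 pooled, with 1, 3 and 2.

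The other 6 had no optimal summit. The arginine, asparagine, lysine and isoleucine cluster at 2R:6161535-6171759 had none in 11 genes, although 10 had a pooled summit, the best at rank 11867. The leucine cluster at 3L:8060214-8068290 had 5 of 6 pooled (best rank 4699), the glutamine cluster at 2L:2009155-2013250 had 5 of 5 (3966), the arginine and asparagine cluster at 3R:8139533-8141042 had 5 of 6 (17240) and the glutamate cluster at 3L:1397695-1401852 had 2 of 6 (9642). The arginine and serine cluster at X:14014814-14017284 had no pooled summit at any of its 7 genes. The tRNA:Arg-TCG-3-1 gene printed above is one of them, and its A and B boxes were intact by the letters searched. By cluster size, optimal summits were at 20 of 76 genes in clusters of 2, 9 of 66 in clusters of 3 or 4 and 11 of 72 in clusters of 5 or more, and pooled summits at 64.5%, 65.2% and 75% of them. Counted by locus, 28.9% of clusters of 2, 25% of those of 3 or 4 and 40% of those of 5 or more had an optimal summit, and 71.1%, 80% and 90% a pooled one. A larger cluster has more genes that can reach a summit.

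By amino acid, no class with 5 or more genes lacked a pooled summit, while the optimal list left some classes out. Phenylalanine was highest, with 3 of 8 genes (37.5%, Wilson interval 13.7 to 69.4), and its 3 replicates each gave 37.5%. Those 3 genes rest on 2 summits, the one at the RpL17 promoter and the one in the divergent pair on 2R. Lysine (0 of 19, upper bound 16.8%) and asparagine (0 of 10, upper bound 27.8%) were lowest. All 10 asparagine genes had a pooled summit, the best at rank 9942, and none was in a top list, while 9 of 19 lysine genes had one. Glycine had 1 of 20 optimal and 6 of 20 pooled (30.0%).

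The other classes lay between these and had wide intervals. Initiator methionine had 2 of 6 optimal genes, and the replicates gave 66.7%, 33.3% and 0%. Aspartate had 4 of 14 optimal and 12 pooled, with top-list shares of 0%, 14.3% and 28.6%. Isoleucine had 3 of 11 optimal and 10 pooled, with 0%, 45.5% and 18.2%. Replicates ordered these classes differently, so an order of amino acids cannot be read from the optimal list.

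**Figure D5:**
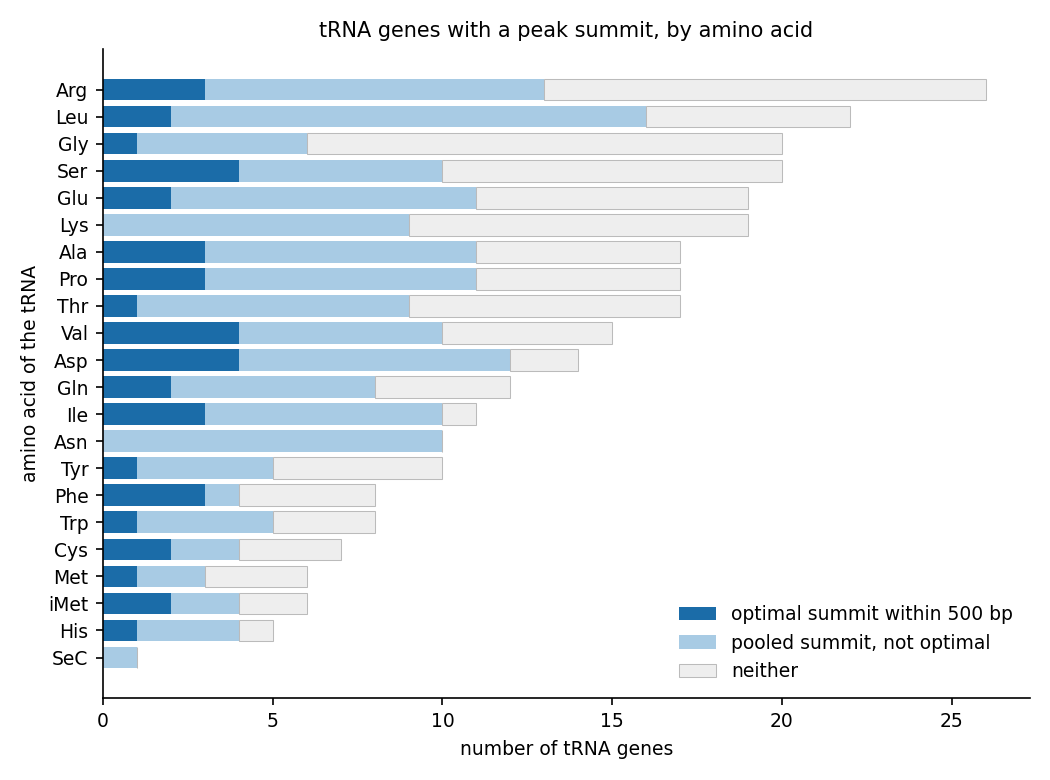
Number of tRNA genes (x axis) of each amino acid (y axis) with an optimal summit within 500 bp of the start (dark), with a pooled but no optimal summit (light) and with neither (grey). Phenylalanine has 3 of 8 genes in the dark part, and lysine and asparagine have none of 19 and 10.

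Genes with the same sequence were not alike in their peaks. The 290 genes had 95 distinct sequences, and 43 sets of identical genes covered 238 of them. An optimal summit was near at least 1 gene in 20 of these sets, and all 20 also held genes without one. In the pooled list, 31 sets were mixed, 8 had a summit at every gene and 4 at none. The 12 identical genes of the tRNA:Asp-GTC-1 set, whose 72 bases are printed above, had optimal summits at tRNA:Asp-GTC-1-1, tRNA:Asp-GTC-1-4 and tRNA:Asp-GTC-1-5. Another 7 of the 12 had a pooled summit, with best ranks from 5070 at tRNA:Asp-GTC-1-8 and tRNA:Asp-GTC-1-9 to 21968 at tRNA:Asp-GTC-1-12, and tRNA:Asp-GTC-1-7 and tRNA:Asp-GTC-1-11 had none. The same gene sequence thus occurred with and without a listed peak.

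Repeated sequence was scarce around most tRNA genes. Within 500 bp of the start, a median of 5.05% of 50-base stretches occurred more than once in the genome at genes with an optimal summit, 4.94% at genes with a pooled summit only and 3.47% at genes with neither. There were 5 genes with over 50% repeated stretches (median 63.9%), and none of these had a summit in the optimal or pooled list. The part of repeated sequence in these values was not tested.

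Internal promoter letters were present with and without a peak. An A box starting near base 8 was found in 99.0% and a B box in 93.4% of tRNA genes, searched on the gene's strand, beside 9.97% and 1.63% of the first 73 bases of 13945 protein-coding genes. The B box was in 93.0% of genes with an optimal summit, in 94.7% of genes with a pooled summit only and in 92.1% of genes with neither. Within 100 bp of the summit, on both strands, 53.6% of the 28 optimal tRNA peaks held a B box, beside 6.49% of all optimal peaks, as these windows take in tRNA genes. The E-box CAGCTG was in 1 of the 28 windows (3.57%) and in 9.51% of all optimal peaks, GAGAG in 28.6% and 28.3%, CACACACA in 0 of 28 and 5.28%, TATCGATA in 1 of 28 and 1.92%, GGTCACAC in 0 of 28 and 1.64%, and TTTTT in 82.1% and 76.7%. None of these motifs contains another, and a match describes letters only.

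Chromosome arms held unequal numbers of tRNA genes with a summit. Shares of protein-coding gene starts by arm are not given here, so a trait of tRNA genes cannot be told apart from one of the whole arm. Optimal summits were at 25 of 98 tRNA genes on 2R (25.5%), 7 of 41 on 2L (17.1%), 8 of 79 on 3R (10.1%), 2 of 48 on 3L (4.17%) and 1 of 24 on X (4.17%). Pooled summits were at 76, 22, 48, 27 and 3 genes of these arms. Arm 2R was highest in every replicate's top list, with 20.4%, 30.6% and 20.4%, while arm 2L gave 0%, 7.32% and 17.1%. On X the relaxed lists gave 33.3%, 8.33% and 25%, each the lowest of the arms in its replicate.

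Other small RNA genes had fewer summits than tRNA genes. Small nucleolar RNA genes, which guide RNA modification, had an optimal summit at 19 of 269 (7.06%) and a pooled one at 68 (25.3%), and the top lists held 10.3%, 16.9% and 12.8% of tRNA genes and 6.69%, 7.81% and 6.69% of these. Small nuclear RNA genes had 2 and 10 of 32. None of 100 annotated 5S ribosomal RNA entries, of which 4 are pseudogenes, had a summit in any list. The 5S entries lie in a row at 2R:19729562-19766278, and whether reads from these copies could be placed uniquely was not tested. With those entries, the list of other RNA polymerase III products held 108 members, of which 1 had an optimal and 4 a pooled summit. Most of the list is thus the 5S row, and all of its summits were at the few other members, named next. RNaseMRP:RNA, the RNA of a ribosomal RNA processing enzyme, had the optimal summit (rank 2041) at 138 bp, ranked 1142, 2761 and 3649 in the replicates. RNaseP:RNA, the RNA of the enzyme that trims tRNA 5′ ends, had a pooled summit only (rank 8462). The U6 genes snRNA:U6:96Aa and snRNA:U6:96Ac had pooled summits too, at ranks 18606 and 12066. Neither snRNA:U6:96Ab, snRNA:U6atac nor the 7SL RNA genes, whose product is the RNA of the signal recognition particle, had an optimal or pooled summit.

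Genes of the tRNA-making machinery were read in the same way. Of 22 genes for polymerase III subunits and factors, 3 had an optimal and 12 a pooled summit, or 13.6% and 54.5%, beside 11.6% and 48.5% of all protein-coding genes. Polr3E, a polymerase III subunit (rank 302), ranked 324, 391 and 272, Bdp1, a TFIIIB subunit (rank 426), 622, 413 and 506, and Brf, the TFIIB-related TFIIIB subunit (rank 1155), 1039, 1284 and 1268. La, which binds new polymerase III transcripts, had only a pooled summit (rank 24548), and Maf1, a repressor of polymerase III known from yeast and animals, had none. Of 15 genes for tRNA processing and modification, Archease, a cofactor of tRNA ligation (rank 2263, replicate ranks 4861, 1377 and 5379), was the only one with an optimal summit and 10 had a pooled one.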

How the data were processed

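Chromatin of whole embryos was sheared by sonication to 200 to 800 bp per the labels and precipitated in 3 replicates. The authors deposited narrowPeak lists on dm6 and dm3, and the dm6 lists (Release 6) were used. Per the submitters' file list, each replicate's relaxed list came from its alignments and a control, and the optimal list from replicate and pooled lists by irreproducible discovery rate. For the aligner, the caller and the threshold, no name or value is given in the sources used here. The deposited signal column, each peak's own value, ranked peaks within a list. The deposited −log10 q-value column was not used. Depth per library is unknown.

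Summits were the deposited offsets, written from 1, and 1 optimal summit past its peak's end was set to the last base. Genes came from Ensembl release 115 and sequence from RefSeq, both of Release 6. Protein-coding starts, genome positions and other RNA genes were measured the same way. Shares have Wilson 95% intervals (counting error only). Differences were tested over the 3 replicates by exact two-sided sign-flip permutation (smallest p 0.25). No test was made over genes, which share peaks. A replicate's rank at an optimal peak at tRNA genes is its best summit within 200 bp. For genes of the other lists, replicate ranks are those of the best summit near the gene start. These need not belong to the optimal peak. Counting was tested on simulated data. Python 3.11.15, numpy 2.4.6, pandas 2.3.3 and scipy 1.17.1 were used.

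The tRNA genes, the other gene lists and the splits were chosen with earlier results of these data known. Named were the genes at the 10 strongest optimal peaks, every cluster of 5 or more genes, the amino acids of highest and lowest optimal share, genes at the edges of the rules, and list members with an optimal summit plus up to 2 without. Members without an optimal summit from the processing list are not reported here by name. The Asp, Ile, Gly and iMet classes, RNaseP:RNA, the U6 genes and the printed tRNA:Cys-GCA-1-1 and tRNA:Arg-TCG-3-1 genes were picked after their values were seen. Alternatives covered the window, overlap, list depth, cluster and TSS distances, loci, copies and each replicate left out.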

Additional observations from a re-analysis of the deposited data

How the results depend on the processing

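With a window of 100 bp, an optimal summit was found at 5.52% of tRNA genes, a pooled one at 28.6% and a top-list one at 4.37% (mean of replicates), and the median distance was −15.5 bp. With 250 bp the pooled share was 50.3%. With 1000 bp these values were 19.7%, 70.7%, 18.3% and −73 bp. When a peak interval had to overlap the gene, the optimal, pooled and top-list shares were 10.7%, 49.0% and 8.97%. In the 1000 strongest optimal peaks the share was 1.38%, the median distance 81 bp, the median rank 544, and clustered minus lone genes turned to −3.48 points; this setting holds 4 genes. The relaxed replicate lists gave 59.9% in place of the top lists' 13.3%. Genes with no identical copy, 52 in all, had 19.2% optimal and 57.7% pooled. Leaving out each replicate gave 11.6 to 14.8% for the top-list mean, and, for optimal peaks held by both other top lists, 6.55 to 9.31% of genes (7.24% without replicate 3), a median distance of −91 to −60 bp and a median rank of 1583 to 1672 (1628 without replicate 2). The differences then ran from 7.10 to 13.7 points for a coding TSS and from 3.53 to 7.27 for clusters. Other than the reversal named, the optimal-list differences by coding TSS and by cluster kept their direction under every alternative run, none of which can reach a p under 0.25. With a coding TSS within 250 bp the optimal-list difference was 18.9 points. The exact sign-flip p over the top lists was then 0.5, so the replicates did not all share that direction. Of the 44 recomputed shares by amino acid, 33 moved by no more than the replicate SD. No gene was annotated as a tRNA pseudogene, so leaving these out was not run. No paired analysis was possible because the samples form 1 group. Depth is unknown, and weak entries of a list of fixed length cannot be told from background here.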

Other observations

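Some further splits of the tRNA genes gave smaller differences, given here as values. Genes inside a protein-coding gene, 134 in all, had top-list shares of 7.46%, 11.9% and 10.4%, and genes outside coding genes had 12.8%, 21.2% and 14.7%, so the share was lower inside in each replicate. The 16 genes with an intron had 6.25%, 12.5% and 12.5%, and intronless genes 10.6%, 17.2% and 12.8%. A run of TTTT, the usual end signal of RNA polymerase III, began within 20 bp after 83.7% of genes with an optimal summit, 82.7% of genes with a pooled summit only and 85.1% of genes with neither. The share of pooled peaks that lay at a tRNA gene was 0.4% in ranks 1 to 1000, 0.943% in ranks 1001 to 3545, 0.806% in ranks 3546 to 10000, 0.53% in ranks 10001 to 20000 and 0.29% in ranks 20001 to 30000.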
